A study of Homo sapiens with 6 samples.

Results

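The steroid-converting enzymes described here are 10 genes listed for interconverting, releasing or conjugating androgens and estrogens. They include the steroid reductase SRD5A1 and SRD5A3, a polyprenol reductase that is named with the 5α-reductases. The aldo-keto reductases are AKR1C1, AKR1C2 and AKR1C3, and the hydroxysteroid dehydrogenases are HSD17B2 and HSD17B4. The others are the steroid sulfatase STS and the UDP-glucuronosyltransferases UGT2B11 and UGT2B28. These 10 genes were chosen by name and by their listed place in androgen and estrogen conversion, with earlier results of these data known. All 10 were found among the 33451 genes of the count table. The cells were MDA-MB-453, a line derived from a human breast cancer, and 25(OH)D, or 25-hydroxyvitamin D, is the main circulating vitamin D metabolite. One group received 25(OH)D at 100 nM, the other (control) received the alcohol in which it was dissolved, both until day 5, and the mRNA of each group was sequenced in 3 libraries. All libraries came from this 1 line, no gene was altered in either group, and the study calls the libraries biological replicates without saying how the cultures were kept apart, so the p-values measure the spread between these libraries.

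Steroid hormones are activated and inactivated inside target tissues by small sets of enzymes. A 5α-reductase turns testosterone into dihydrotestosterone, the AKR1C enzymes reduce keto groups on the steroid ring, and hydroxysteroid dehydrogenases of the 17β group switch androgens and estrogens between a potent and a weak form. Sulfatase frees steroids from their sulfates, and UGT2B enzymes attach glucuronic acid, which makes a steroid soluble and ready for export. Breast tissue and breast tumours are a known setting for this local metabolism.

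The libraries held between 33268860 and 40928176 counts, so that 3 counts corresponded to 0.0720 to 0.0921 CPM. CPM is the count of a gene after each library is brought to the same depth. The labelled cell type was checked against marker genes. The 7 luminal epithelial markers summed to between 3843 and 3986 CPM in control and between 3809 and 3848 CPM in 25(OH)D. Within this sum GATA3, FOXA1 and KRT19 were lower in 25(OH)D, with log2 fold changes of -0.80, -0.46 and -0.41. KRT8, KRT18 and CDH1 were higher (0.14, 0.10 and 0.34), each of these genes at an edgeR adjusted p under 0.05. EPCAM passed this threshold in neither direction. ESR1 and PGR had at most 4 and 8 counts in any library. Markers of other cell types were low except 2 genes. COL1A1 lay between 31.97 and 38.5 CPM, and CD68 had a mean of 4.93 CPM in control and 15.9 CPM in 25(OH)D, while the leukocyte markers PTPRC and CD3E had at most 6 and 2 counts. The liver markers ALB and APOA1 had at most 22 and 2 counts. The part of these markers in the results below was not tested. In bulk RNA, fewer cells that express a gene and less RNA per cell cannot be told apart.

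The 3 AKR1C genes lie side by side on chromosome 10 and are close copies of each other, which bears on how their reads can be told apart. RefSeq entries (GRCh38.p14) were found for 8 of the 10 genes, with 13 start sites, and the 250 bases before each were searched on both strands for AGGTCA and AGTTCA, the half-site letters known for the vitamin D receptor with its partner RXR, and for TGACNNNGC, the core of the antioxidant response element. The letters AGTTCA, read on the opposite strand as TGAACT, stood in the window of AKR1C1, in that of AKR1C2 and in both windows of AKR1C3, against 8.80% of all 35116 windows of this length. The 30 bases around each match are shown because they let the copies be compared, with the match in capitals.

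AKR1C1, chr10:4963262-4963291, plus strand: gtaagaaacggtTGAACTggatgcaatttt
AKR1C2, chr10:5003985-5004014, minus strand: gtaagaaacggtTGAACTggatgcaatttt
AKR1C3, chr10:5048632-5048661, plus strand: agaagaaacaatTGAACTggattcagtttt
AKR1C3, chr10:5094252-5094281, plus strand: ataagaaacaaaTGAACTgaatgcaatttt

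The stretches of AKR1C1 and AKR1C2 were the same in all 30 bases, and their whole windows were identical at 96.5% of aligned positions. The AKR1C3 windows matched those of the other two at 69.9% to 72.4%. The match began 141 bases before the start site in AKR1C1, 145 in AKR1C2, and 137 and 150 in the windows of AKR1C3, and each stretch lies inside the span that the count table gives its gene. Because the windows are copies of each other, the 4 matches are not separate occurrences. SRD5A3 held TGACNNNGC, in the stretch cccgccccgcGCCGCGTCAccgacgtcccg at chr4:55346210-55346239, shown on the plus strand with the match in capitals, against 10.9% of all windows. The SRD5A3 stretch also lies inside the span that the count table gives its gene. UGT2B11 held AGGTCA, found in 12.1% of all windows, and TGACNNNGC, and the 2 matches overlap. STS held AGTTCA, TGACNNNGC and AGGTCA, each in the window of a different start site, and none of these letters at its other start sites. SRD5A1 and HSD17B4 had no match. HSD17B2 and UGT2B28 had no entry. A match of letters is a description and does not show binding.

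The 10 enzymes covered a wide range of levels. On the scale of reads scaled to gene length and library total (RPKM), which allows genes to be compared, the means over all 6 libraries were 30.2 for HSD17B4, 15.8 for STS, 3.03 for SRD5A3, 1.18 for UGT2B11, 1.01 for SRD5A1, 0.724 for UGT2B28, 0.308 for AKR1C2, 0.0400 for AKR1C3, 0.0126 for HSD17B2 and 0.00748 for AKR1C1. HSD17B4, STS and SRD5A3 stood apart from each other and from the rest in every library. The middle of the order was not resolved, since UGT2B28 spanned 0.359 to 1.01 RPKM in control and SRD5A1 0.650 to 0.913, and since SRD5A1 spanned 1.13 to 1.54 RPKM in 25(OH)D and UGT2B11 0.681 to 1.47. The libraries of the 3 lowest genes also overlapped in places.

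**Figure D1:**
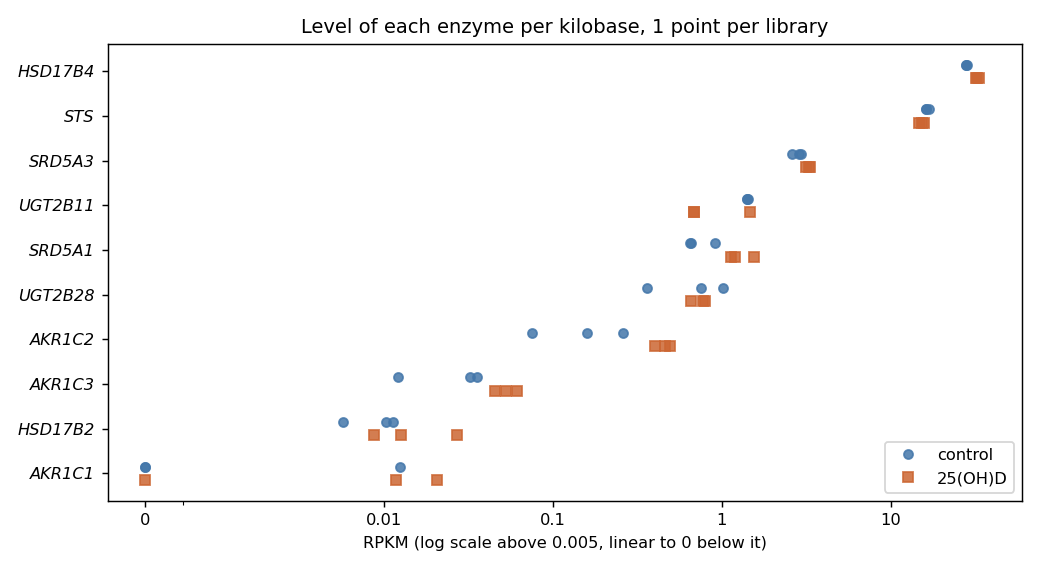
Level of each enzyme in RPKM on the horizontal axis, logarithmic above 0.005 and linear from there to 0, with 1 point per library (circles control, squares 25(OH)D). HSD17B4 and STS lie above 10 RPKM and AKR1C1, at 0 in 3 libraries, lies lowest.

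The question of the comparison was which of these genes differed in their mRNA after 5 days with 25(OH)D. SRD5A1, SRD5A3, AKR1C2 and HSD17B4 were higher in 25(OH)D, none was lower, and STS, UGT2B11 and UGT2B28 did not pass the test (edgeR quasi-likelihood, Benjamini-Hochberg adjusted p under 0.05 over 18183 genes). AKR1C1, AKR1C3 and HSD17B2 lay under the low-count filter and were not tested in this fit. The 4 higher genes of the 7 tested stand beside 17.3% of all tested genes called higher, and the 0 lower genes beside 16.5% called lower. DESeq2 gave the same counts, 4 higher and 0 lower, and at an unadjusted p under 0.05 there were also 4 higher and 0 lower. The median log2 fold change was 0.26 over the 7 genes and -0.011 over all genes tested. At the limits the study drew, a log2 fold change over 1 in size and an unadjusted p under 0.05, AKR1C2 was the 1 gene called higher, beside 4.02% of all genes, and 0 were called lower, beside 2.63%. In CPM, the 3 control libraries all lay below the 3 libraries of 25(OH)D for the same 4 genes, beside 22.8% of all tested genes, and for 0 of the 7 did they all lie above, beside 22.9%. None of the 7 had passed the low-count filter through 1 group alone.

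**Figure D2:**
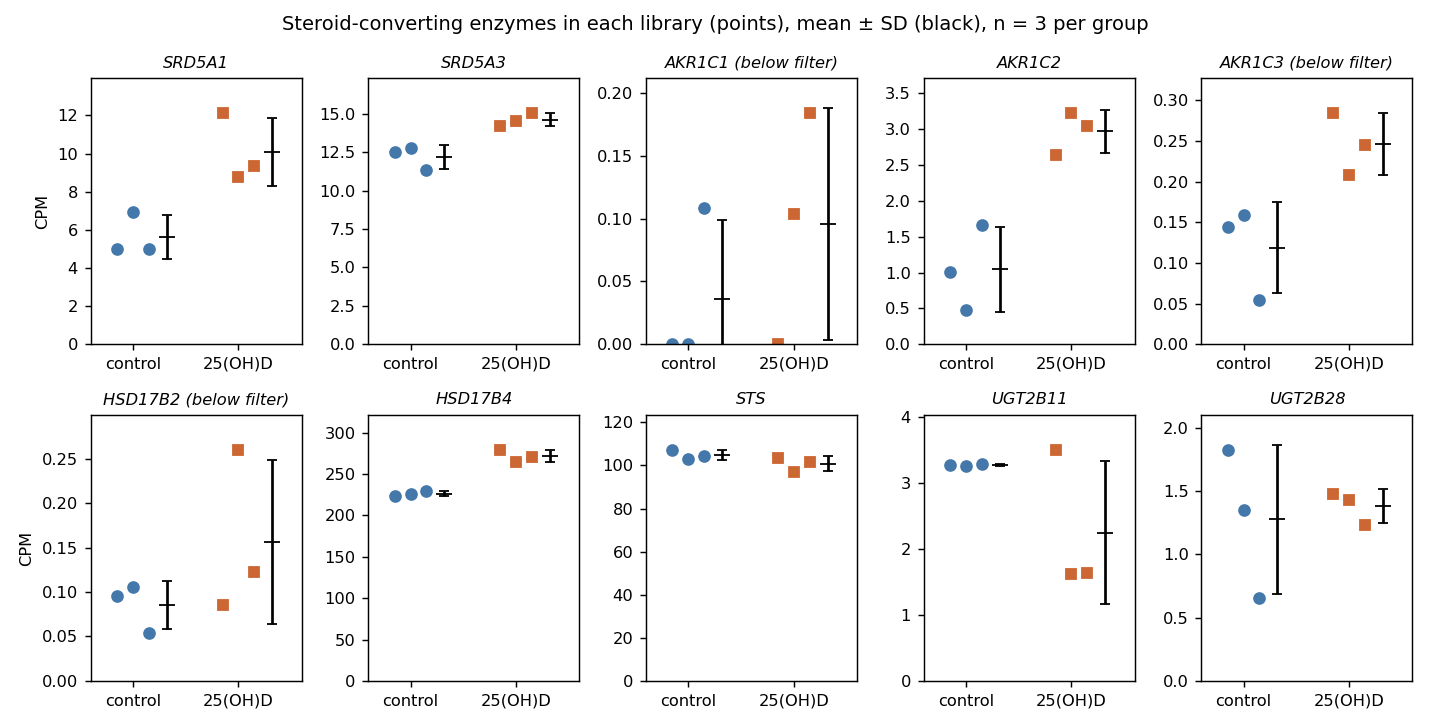
CPM of each enzyme in each library (circles control, squares 25(OH)D), with the mean ± SD in black (n = 3), each panel on its own scale from 0, so that the lower end of the SD is cut off for AKR1C1 in control. The groups are apart for SRD5A1, SRD5A3, AKR1C2, AKR1C3 and HSD17B4, and 1 library of 25(OH)D stands above the other two for UGT2B11.

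SRD5A1 (chr5:6633343-6674386, plus strand) encodes a steroid 5α-reductase that makes dihydrotestosterone from testosterone. It had 4.97, 6.93 and 4.97 CPM in control and 12.1, 8.79 and 9.36 CPM in 25(OH)D. Every 25(OH)D library lay above every control library. The mean rose from 5.62 ± 1.13 to 10.1 ± 1.78 CPM (SD, n = 3), a log2 fold change of 0.84 (SE 0.154, adjusted p = 6.54e-04 by the edgeR quasi-likelihood test). Without control replicate 2, the highest control library, the log2 fold change was 1.03, which passed the limits of the study. No stretch of 100 bases of its transcripts occurs in another gene of GENCODE 29, and none of its exon bases is shared with another gene of the table.

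SRD5A3 (chr4:55346109-55373096, plus strand) encodes a reductase of polyprenol, best known for the synthesis of dolichol for protein glycosylation, that is named with the 5α-reductases. It had 12.5, 12.8 and 11.3 CPM in control and 14.2, 14.5 and 15.04 CPM in 25(OH)D. The groups did not overlap, but the gap between them was small. The mean was 12.2 ± 0.776 CPM in control and 14.6 ± 0.424 CPM in 25(OH)D, with a log2 fold change of 0.26 (SE 0.0842, adjusted p = 0.0296 by the edgeR quasi-likelihood test). This call was lost in 7 of 15 other settings, among them without control replicate 3 (0.21, edgeR adjusted p = 0.0980), without 25(OH)D replicate 2 (0.27, edgeR adjusted p = 0.0625) and without 25(OH)D replicate 3 (0.25, edgeR adjusted p = 0.0676). Of its 4420 exon bases, 198 are shared with SRD5A3-AS1 on the opposite strand, whose log2 fold change was 0.29 (edgeR adjusted p = 0.251).

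AKR1C2 (chr10:4987400-5018031, minus strand) encodes an aldo-keto reductase that converts dihydrotestosterone to a weak androgen. It had 42, 18 and 61 counts in control and 93, 124 and 99 counts in 25(OH)D. The control libraries spread widely, and all 3 lay below the 25(OH)D libraries. In CPM the values were 1.01, 0.476 and 1.66 against 2.65, 3.23 and 3.04, with means of 1.05 ± 0.591 and 2.97 ± 0.296 (SD, n = 3). The fitted fold change was 2.84, on the log2 scale 1.51 (SE 0.315, adjusted p = 0.00182 by the edgeR quasi-likelihood test), the largest of the 7 tested genes. It lay between 1.17 without control replicate 2 and 1.99 without control replicate 3. By the distance of centred log2 CPM over the 6 libraries, the tested genes nearest to AKR1C2 were SALRNA1 (0.626), RP11-256I23.1 (0.639) and GOLGA6A (0.662).

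AKR1C1 (chr10:4963253-4983283, plus strand) encodes the aldo-keto reductase that inactivates progesterone. It had 0, 0 and 4 counts in control and 0, 4 and 6 counts in 25(OH)D. The groups overlapped, and the two-sided exact permutation test on CPM gave p = 0.7. AKR1C3 (chr10:5035354-5107686, plus strand) encodes an enzyme that makes testosterone from androstenedione. It had 6, 6 and 2 counts in control and 10, 8 and 8 counts in 25(OH)D. In CPM these groups did not overlap, with 0.119 ± 0.0565 in control and 0.246 ± 0.0382 in 25(OH)D (SD, n = 3). The two-sided exact permutation test gave p = 0.1, which is the smallest value that 3 libraries against 3 can give, and in an edgeR fit without a low-count filter the adjusted p was 0.509. The ratio of 25(OH)D to control was 2.03 for AKR1C3 with a 95% counting interval from 0.754 to 6.02 (exact binomial), and 2.74 for AKR1C1 with an interval from 0.448 to 28.7. Among values from 1 to 20 counts in the table, 67.2% were even, against 50.8% of values above 1000, as when both reads of a pair are counted, so these intervals were computed on halved counts, and they cover counting error only. Both intervals include 1, and a difference was not detectable at this depth for either gene.

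The 3 AKR1C genes were also summed, since 22.1% of the 100-base stretches of AKR1C2 transcripts occur in AKR1C1 as well, and 16.5% of those of AKR1C1 in AKR1C2, whereas 1.75% of those of AKR1C3 occur in any other gene. How reads that fit more than 1 gene were counted is not given in the sources used here, so the split between AKR1C1 and AKR1C2 is uncertain. The summed level was 1.20 ± 0.594 CPM in control and 3.31 ± 0.332 CPM in 25(OH)D, a ratio of 2.75. AKR1C2 held between 75.0% and 91.2% of the summed counts in each library, so the sum followed AKR1C2.

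**Figure D3:**
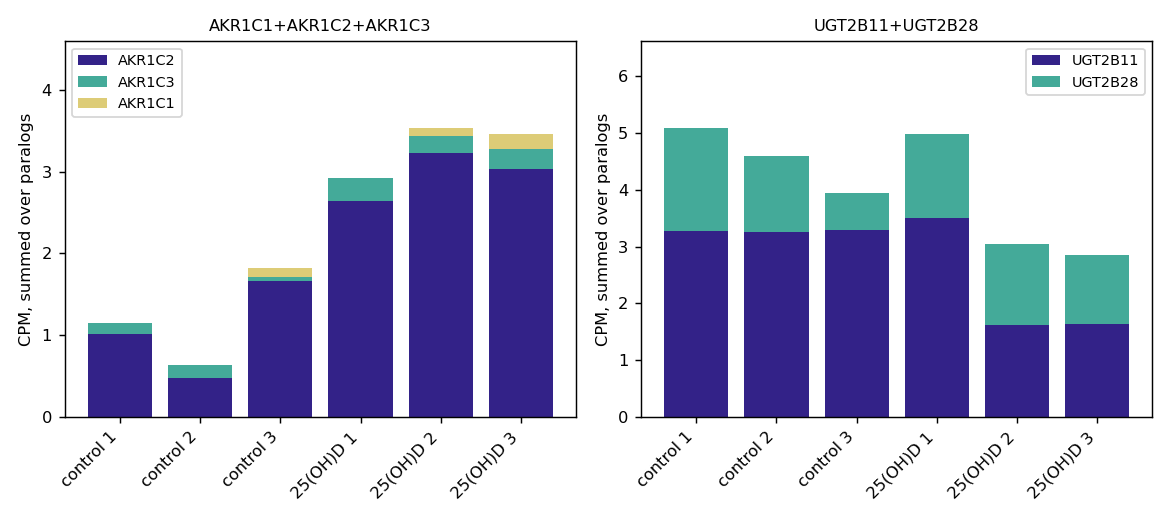
Stacked CPM of the AKR1C genes (left) and of the UGT2B genes (right) in each of the 6 libraries, with 1 bar per library and 1 colour per gene. AKR1C2 makes up at least 75.0% of every AKR1C bar, and the UGT2B bars of 25(OH)D replicates 2 and 3 are the shortest of their panel.

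HSD17B4 (chr5:119452443-119637199, plus strand) encodes a peroxisomal enzyme of fatty acid oxidation that also oxidises estradiol. It was the most abundant of the 10, with 224, 226 and 230 CPM in control and 279, 265 and 270 CPM in 25(OH)D. The replicates lay close together and the groups were apart. The mean was 226 ± 3.16 CPM in control and 272 ± 7.28 CPM in 25(OH)D (SD, n = 3), a log2 fold change of 0.26 (SE 0.0374, adjusted p = 7.72e-05 by the edgeR quasi-likelihood test). The size of this rise was that of SRD5A3, while its standard error was smaller, with 8465 to 10186 counts in each library against 417 to 559. Its exons share 182 bases with FAM170A, which had at most 10 counts.

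HSD17B2 (chr16:82035004-82098534, plus strand) encodes the enzyme that oxidises estradiol to estrone and testosterone to androstenedione. It had 4, 4 and 2 counts in control and 3, 10 and 4 counts in 25(OH)D. The groups overlapped (two-sided exact permutation test on CPM, p = 0.3), and the ratio was 1.86 with a counting interval from 0.593 to 7.49, so that a difference was not detectable at this depth. Both dehydrogenases of the set that oxidise estradiol were present at very different levels, 30.2 RPKM for HSD17B4 and 0.0126 RPKM for HSD17B2 over all libraries.

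STS (chrX:7219456-7354810, plus strand) encodes steroid sulfatase, which releases estrone and dehydroepiandrosterone from their sulfates. It had 107, 103 and 104 CPM in control and 104, 96.99 and 102 CPM in 25(OH)D. The groups overlapped, and the mean was 105 ± 2.20 CPM in control and 101 ± 3.44 CPM in 25(OH)D (SD, n = 3). The log2 fold change of -0.06 (SE 0.0445) did not pass the test (edgeR adjusted p = 0.365). With 3317 to 4466 counts in each library, its standard error was close to that of HSD17B4.

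UGT2B11 (chr4:69199951-69214731, minus strand) and UGT2B28 (chr4:69280499-69295050, plus strand) encode glucuronosyltransferases of the UGT2B family, whose members conjugate androgens among other substrates. UGT2B11 had 3.27, 3.25 and 3.29 CPM in control and 3.50, 1.61 and 1.63 CPM in 25(OH)D. The control libraries were nearly equal, 25(OH)D replicate 1 lay above them, and the other two libraries of 25(OH)D lay below. The mean was 3.27 ± 0.0173 CPM in control and 2.25 ± 1.09 CPM in 25(OH)D, and the log2 fold change of -0.54 (SE 0.258) did not pass the test (edgeR adjusted p = 0.127). Without 25(OH)D replicate 1 it was -1.01 (edgeR adjusted p = 0.00210, in a range from 0.00210 to 0.402 over the omission of each library). With all 6 libraries and no low-count filter it passed as well (-0.54, edgeR adjusted p = 0.0317). Of the 2340 exon bases of UGT2B11, 418 are shared with RP11-704M14.1 on the opposite strand, whose log2 fold change was -0.85 (edgeR adjusted p = 0.122), and whether strand was used in counting is not given in the sources used here.

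UGT2B28 had 1.82, 1.35 and 0.652 CPM in control and 1.48, 1.43 and 1.23 CPM in 25(OH)D. The control libraries spanned a wider range than those of 25(OH)D and enclosed them. The mean was 1.28 ± 0.590 CPM in control and 1.38 ± 0.133 CPM in 25(OH)D, and the log2 fold change of 0.11 (SE 0.323) did not pass the test (edgeR adjusted p = 0.836). Without control replicate 3 its sign turned, to -0.20 (edgeR adjusted p = 0.646). The sum of both genes was 4.54 ± 0.579 CPM in control and 3.63 ± 1.18 CPM in 25(OH)D, a ratio of 0.798, and the share of UGT2B28 in the sum lay between 16.6% and 35.8% in control and between 29.7% and 47.0% in 25(OH)D. Of the 100-base stretches of their transcripts, 8.26% of UGT2B11 and 5.40% of UGT2B28 occur in another gene.

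**Figure D4:**
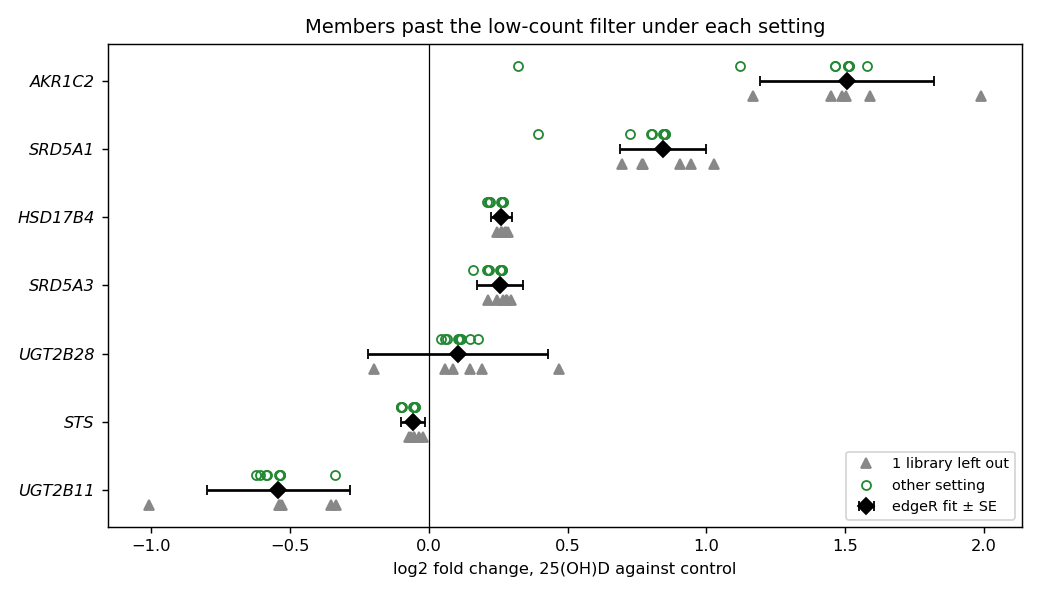
Log2 fold change of 25(OH)D against control on the horizontal axis for the 7 tested enzymes (diamonds, ± SE), with the values after omission of each library (triangles) and under other settings (circles). AKR1C2, SRD5A1, HSD17B4 and SRD5A3 stay above 0 throughout, and UGT2B11 reaches -1.01 without 25(OH)D replicate 1.

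The other genes of the pathway were taken from a list of 70 in 6 roles, of which 61 were in the table and 41 were tested. Of the 41, 18 were higher, 8 lower and 15 not called, with a median log2 fold change of 0.22, beside the same 17.3% and 16.5% of all genes. Of the 8 lower genes, 6 were UGT1A genes, which share at least 1478 exon bases with each other and are largely the same counts. With these counted as 1 gene, 18 of 36 were higher and 3 lower. At the limits of the study 7 of the 41 were higher and 7 lower, beside 4.02% and 2.63% of all genes. With the UGT1A genes counted once, these were 7 and 2 of 36. Of the 41, 6 had passed the low-count filter through 1 group alone (SULT1E1, UGT2B15, UGT2B17, HSD3B1, CYP19A1 and CYP3A5), which favours a difference for a gene that is high in that group. Of the 35 others, 15 were higher and 7 lower, or 15 and 2 of 30 with the UGT1A genes counted once, and no p is given for the 6. At the limits of the study, 4 of these 30 were higher and 1 lower.

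In the role nearest to the SRD5A and AKR1C genes, 4 of the 5 listed reductases were in the table and none could be tested, with at most 4 counts for SRD5A2, 2 for AKR1C4, 10 for AKR1B1 and 2 for AKR1B10. AKR1C2 was the most abundant of the AKR1C and AKR1B genes listed here by mean RPKM over all libraries. Of 9 tested hydroxysteroid dehydrogenases, 2 were higher and 0 lower, beside 17.3% and 16.5% of all tested genes. The same shares stand beside the counts of the roles below. HSD17B12, which acts in fatty acid elongation and on estrone, had means of 25.95 and 33.03 CPM and a log2 fold change of 0.35 (SE 0.0773, adjusted p = 0.00274 by edgeR). Of its 7838 exon bases, 948 are shared with RP11-613D13.5 on the opposite strand, whose log2 fold change was also 0.35 (edgeR adjusted p = 0.0476). On the same strand, 490 are shared with RP11-472I20.4, whose log2 fold change was 0.34 (edgeR adjusted p = 0.0155).

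Of 7 tested genes listed under sulfation, 6 were higher and 1 lower. The 5 sulfotransferases and enzymes of the sulfate donor, which act opposite to STS, gave 4 higher and 1 lower. SUMF1, which activates sulfatases such as STS, stands on the other side, and no side is given here to its relative SUMF2. SUMF1 and SUMF2 were both higher, with log2 fold changes of 0.64 (edgeR adjusted p = 1.09e-04) and 0.34 (edgeR adjusted p = 3.77e-04). Both were named after their values were seen, and SUMF1 shares 190 exon bases with LRRN1 on the opposite strand, whose log2 fold change was -1.85. SULT1A1, a phenol sulfotransferase, rose from 19.5 ± 2.42 to 59.4 ± 1.84 CPM (log2 fold change 1.61, adjusted p = 1.32e-09 by edgeR). SULT1E1, the estrogen sulfotransferase, was the 1 gene counted lower, with 21, 21 and 10 counts in control and 0, 2 and 0 in 25(OH)D. It had passed the low-count filter through control alone, which favours a lower call. The ratio of SULT1E1 was 0.0421, with a counting interval from 0.00103 to 0.256. This interval covers counting error only, not the spread between libraries, and is not a test of the difference. SULT2B1, a hydroxysteroid sulfotransferase named after its values were seen, rose from 1.33 ± 0.229 to 9.76 ± 0.324 CPM (log2 fold change 2.86, adjusted p = 2.10e-09 by edgeR).

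Of 11 tested genes listed under glucuronidation, 3 were higher and 6 lower, or 3 and 1 of 6 with the UGT1A genes counted once. The 11 include GUSB, which removes glucuronic acid. GUSB, named after its values were seen, was not called (log2 fold change 0.03, edgeR adjusted p = 0.778). UGT2B15, among the 3, had passed the low-count filter through 25(OH)D alone, which favours a higher call. UGDH, which makes the glucuronic acid donor, rose by a log2 fold change of 0.31 (SE 0.0679, adjusted p = 0.00238 by edgeR). The counts at UGT1A1, the bilirubin and estradiol glucuronosyltransferase, fell from 15.6 ± 0.794 to 7.23 ± 1.04 CPM (log2 fold change -1.11, adjusted p = 1.84e-06 by edgeR). Of its 4467 exon bases, 2227 are shared with UGT1A10 on the same strand, so the counts do not show which UGT1A gene fell. UGT2B15, an androgen glucuronosyltransferase of the same family as UGT2B28, named after its values were seen, had 6, 6 and 6 counts in control and 16, 16 and 10 in 25(OH)D. Of the 100-base stretches of UGT2B15 transcripts, 12.7% occur in UGT2B17, so the split of reads between these genes is uncertain. UGT2B17, also named after its values were seen, had 20, 2 and 10 counts in control and 19, 34 and 10 in 25(OH)D, and its groups overlapped.

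Of 10 tested genes of synthesis from cholesterol, 4 were higher and 1 lower. Of the 4, CYP19A1 and HSD3B1 had passed the low-count filter through 25(OH)D alone, which favours a higher call. CYP19A1, the aromatase that turns androgens into estrogens, had 0, 0 and 2 counts in control and 27, 31 and 27 in 25(OH)D. The ratio of CYP19A1 was 46.5, with a counting interval from 8.01 to 1903. This interval covers counting error only, not the spread between libraries, and is not a test of the difference. HSD3B1, which makes androstenedione and was named after its values were seen, had 0 counts in each control library and 28, 18 and 16 in 25(OH)D, at least 7.54-fold higher against 3 counts per library. TSPO, a cholesterol-binding protein of mitochondria, fell, with a log2 fold change of -0.27 (edgeR adjusted p = 0.0343), a call kept in 10 of 15 settings. Of 4 tested genes of steroid oxidation 3 were higher and 0 lower. CYP1B1, which hydroxylates estradiol and had the smallest p of the role, rose from 55.6 ± 3.85 to 88.2 ± 1.54 CPM (log2 fold change 0.67, adjusted p = 3.62e-07 by edgeR). CYP1A1, another estrogen hydroxylase, named after its values were seen, rose more, from 1.82 ± 0.351 to 4.80 ± 0.410 CPM (log2 fold change 1.40, adjusted p = 2.79e-05 by edgeR).

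**Figure D5:**
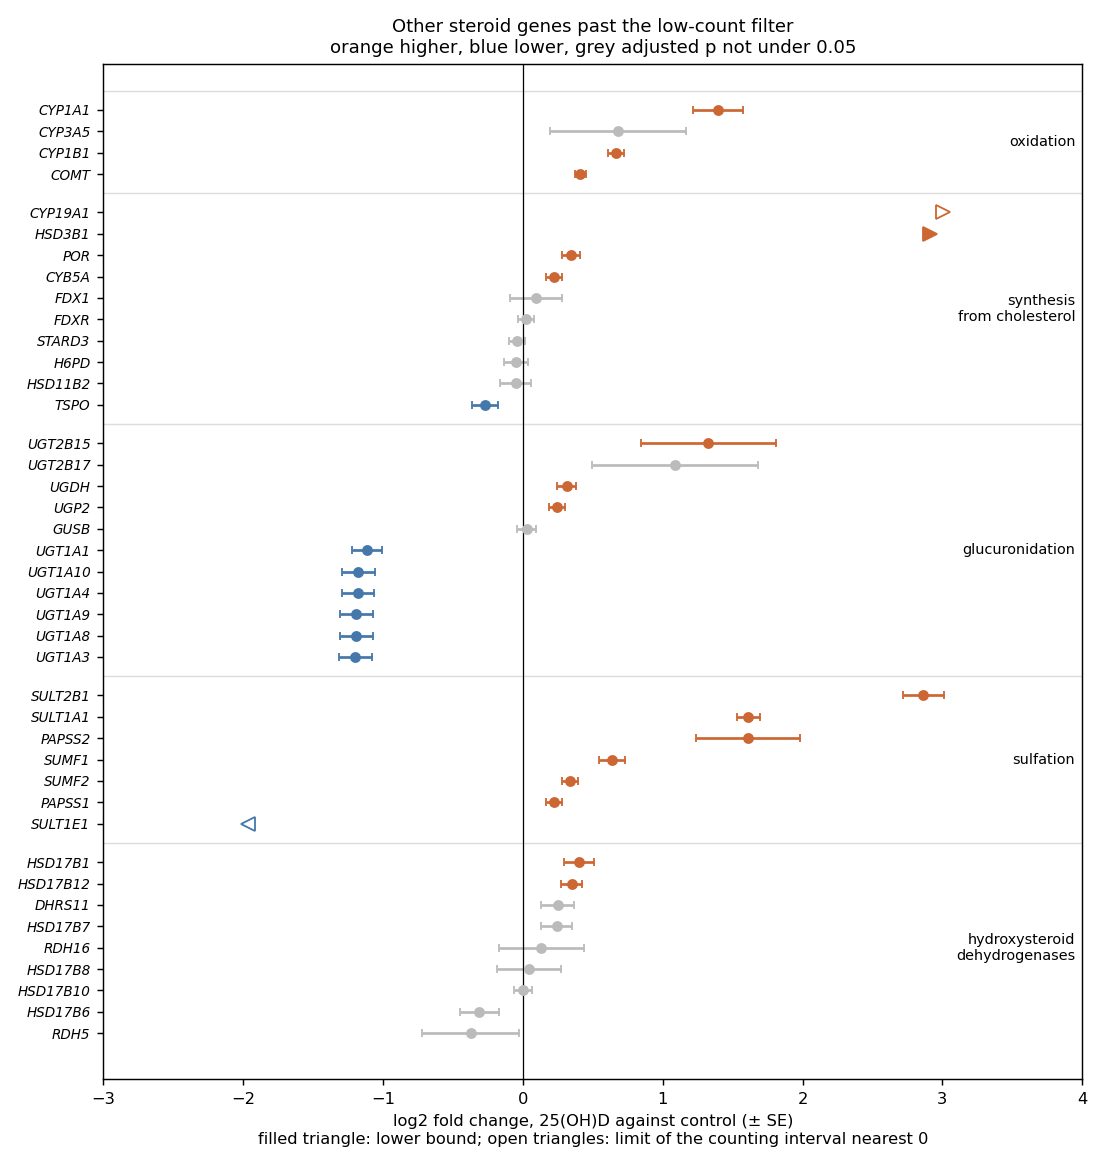
Log2 fold change (± SE) of the 41 other tested steroid genes, in their roles, with orange for higher, blue for lower and grey for genes not called. HSD3B1 is drawn at its lower bound (filled triangle), CYP19A1 and SULT1E1 at the limit of the counting interval nearest 0 (open triangles), and the UGT1A genes stand together below -1.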

How the data were processed

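The authors deposited a table of counts, whole reads per gene without normalization, and a table of RPKM values, in which the authors divided each count by the gene length and the library total (largest relative difference on recomputation 2.23e-13). Per the submitters' processing notes, Trimmomatic 0.36, featureCounts, Subread 1.5.1 and edgeR 3.12.1 were used with GRCh38. The aligner, annotation release, strand setting and treatment of reads that fit several genes are not given in the sources used here. The kit was stranded and the reads paired. The table lists no unassigned reads.

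Counts were tested in R 4.3.3 with edgeR 4.0.16 (TMM factors, low-count filter at a minimum count of 10, quasi-likelihood test of the 2 groups, no covariate) on the whole table, with Benjamini-Hochberg adjustment over 18183 genes. SE is the log2 fold change divided by the root of F. CPM used TMM-scaled library sizes. The biological coefficient of variation was 0.0788. Library totals were 33268860 to 40928176 counts, which limits genes under about 20 counts. The genes below the filter were compared by exact permutation tests. No libraries were duplicates (chi-square per gene 3.97 to 12.1). On simulated data for this comparison (17874 genes fitted), 43 of 50 genes were recovered at 0.5-fold, 41 of 50 at 1.5-fold, 43 of 50 at 2-fold and 50 of 50 at 4-fold, and 16 unchanged genes were called.

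The members and the gene lists were chosen with earlier results of these data known. Besides the members, the genes named were, in each role of the list, the one with the smallest p among those called in each direction, and the 3 tested genes nearest to a member past the limits of the study. Genes outside this rule are marked in the text. Alternatives were other scaling factors, no filter, a filter of at least 50 counts in 3 libraries, DESeq2 1.42.0, limma 3.58.1 on log2(RPKM + 1) and log2(RPKM + 0.1), the replicate number as a block, and the omission of each library. Other steps used Python 3.11.15, pandas 2.3.3, numpy 2.4.6, scipy 1.17.1 and matplotlib 3.10.9. Transcripts were those of GENCODE 29 and start sites those of RefSeq. The genes AKR1D1, HSD17B3, HSD17B13, DHRS9, UGT2B7, UGT2A1, UGT2A2, CYP11A1 and CYP11B2 of the list were not analysed here. Some of the marker genes and motifs looked at are not reported here.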

Additional observations from a re-analysis of the deposited data

How the results depend on the processing

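AKR1C2, SRD5A1, HSD17B4 and STS kept their direction and their side of the threshold in all 15 other settings, at log2 fold changes over the omission of each library from 1.17 to 1.99, 0.70 to 1.03, 0.25 to 0.29 and -0.07 to -0.02. AKR1C2 was 0.32 on log2(RPKM + 1) and 1.12 on log2(RPKM + 0.1), scales that understate changes of low genes. SRD5A3 kept its direction but lost its call with upper-quartile factors (0.22, edgeR adjusted p = 0.0611), with library sizes alone (0.21, edgeR adjusted p = 0.0699), on log2(RPKM + 1) (0.16, limma adjusted p = 0.0917), on log2(RPKM + 0.1) (0.21, limma adjusted p = 0.0889) and in some omissions of a library (0.21 to 0.30, edgeR adjusted p between 0.0376 and 0.0980), and the cause was not tested. UGT2B11 passed the threshold without a low-count filter (-0.54, edgeR adjusted p = 0.0317) and ranged from -1.01 to -0.33 over the omission of each library. UGT2B28 ranged from -0.20 to 0.47, with the reversed sign of -0.20 without control replicate 3, and passed the threshold in no setting.

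The number of enzymes called lower was 1 without a filter, UGT2B11, and between 0 and 1 over the omission of each library. At the limits of the study the number higher was 0 on log2(RPKM + 1), where AKR1C2 was under the fold limit, and between 1 and 2 over the omissions, and the number lower was between 0 and 1. The cause of these moves was not tested. The counts over the list of other steroid genes and over all genes stayed within 1.5 times of those reported. No pairing by replicate number was seen in the values. Libraries with the same number had correlations of -0.072, -0.012 and -0.046 in their deviations, and those with other numbers had -0.016 to 0.063. The labels do not say whether libraries of the same number were handled together, and these correlations cannot show it. With the replicate block the log2 fold changes were 1.58 for AKR1C2, 0.84 for SRD5A1, 0.26 for SRD5A3 (edgeR adjusted p = 0.0472), 0.26 for HSD17B4, -0.06 for STS, -0.61 for UGT2B11 (edgeR adjusted p = 0.0787) and 0.18 for UGT2B28, the block changed no call of these 7 genes, and with it 4 were called higher and 0 lower. Depth limits AKR1C1, AKR1C3 and HSD17B2, which had at most 10 counts in any library.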
